A study of Mus musculus with 2 samples.

Results

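The genes described here are 10 components and targets of YAP/TAZ-TEAD transcription, measured in cultured mouse dermal cells with and without small interfering RNA (siRNA) against β-catenin. They are the coactivator genes Yap1 and Wwtr1, which encodes TAZ, their DNA-binding partner gene Tead1, the upstream genes Lats2, Amotl1 and Amotl2, and the target genes Ccn2 (older symbol Ctgf), Ccn1 (older symbol Cyr61), Ankrd1 and Axl. They were chosen by name as Hippo pathway effectors and known targets. All 10 were measured, of 19938 genes in all, and all 10 lay above the level filter defined below. The cells came from the back skin dermis of newborn (P0) C57BL/6 mice and were kept for 24 h in medium with fetal bovine serum. Both groups were then transfected at 10 nM for 48 h, with control siRNA in one and siRNAs specific for β-catenin in the other. Each group is 1 Affymetrix whole-transcript array of 300 ng total RNA, and the labels do not say how many pups or cultures stood behind an array. No untransfected cells are part of the comparison.

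In the Hippo pathway the kinases LATS1 and LATS2 phosphorylate YAP and TAZ, which keeps these coactivators out of the nucleus. Unphosphorylated YAP and TAZ enter the nucleus, bind TEAD proteins and switch on genes such as Ccn1, Ccn2 and Ankrd1. In fibroblasts the pathway responds to cell density, matrix stiffness and actin tension, and β-catenin shares regulators with it, since the cytoplasmic destruction complex can hold YAP and TAZ too. The activity of YAP and TAZ is set largely at the protein level, which an RNA array does not measure. The question here is which of these transcripts differed when the β-catenin transcript was reduced.

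Values are log2 signals from robust multi-array averaging (RMA), and each difference is the β-catenin siRNA array minus the control array. A group is a single array, so replicate error is unknown, neither a p-value nor an SD can be had, and no difference could be tested against the variation between cultures. A gene passed the level filter if the higher of its values reached 5.13, the median of the genes' means, and 10197 did so. Their differences had a median of -0.02 and a robust SD of 0.22, which holds array noise, differences between cultures and any siRNA effect together. The targeted transcript, Ctnnb1, had 10.48 in the control and 9.34 after β-catenin siRNA, or 45.2% of the control signal. Axin2, a feedback inhibitor and common reporter of Wnt signalling, had 6.83 and 6.08, a difference of -0.75. All 10 fibroblast markers passed the level filter, and 3 of them were at least 1.5-fold higher after β-catenin siRNA (Lum by 1.29, Dcn by 0.84 and Pdgfra by 0.75 on the log2 scale) and none that much lower. The level filter was passed by no skeletal muscle marker of 6, by 1 endothelial marker of 6 (Kdr) and by 1 myeloid marker of 6 (Lyz2). No Schwann cell marker of the 3 measured passed. Pericyte markers passed in 2 of 6, 1 lower and 1 higher, and melanocyte markers in 3 of 6, all 3 lower. None of these pericyte and melanocyte markers reached 1.5-fold. Of 9 keratinocyte markers 7 passed, all of them higher after β-catenin siRNA and 4 past 1.5-fold. Among all genes past the filter 45.8% were higher and 2.76% at least 1.5-fold higher. Epcam passed only through its higher value, with 4.76 in the control and 5.26 after β-catenin siRNA. Krt15 and Trp63 did not pass and had differences of -0.55 and 0.01. The log2 of the summed signal over all 9 markers was 9.68 in the control and 10.35 after β-catenin siRNA. The part of keratinocyte RNA in the differences below was not tested. On an array of mixed cells, fewer cells of a type and less RNA per cell cannot be told apart.

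Among the 10 YAP/TAZ-TEAD genes, Ankrd1 was lower by more than 1.5-fold after β-catenin siRNA and the other 9 lay within 1.21-fold of the control. None was at least 1.5-fold higher. Over all genes past the level filter, 1.84% were at least 1.5-fold lower and 2.76% at least 1.5-fold higher, so 1 gene of 10 is a small count to set against that background. Of the 10 genes 6 were lower and 4 higher by any amount, where 52.8% and 45.8% of all genes past the filter were. Their median difference was -0.10, and it was -0.10 as well without Ankrd1.

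**Figure D1:**
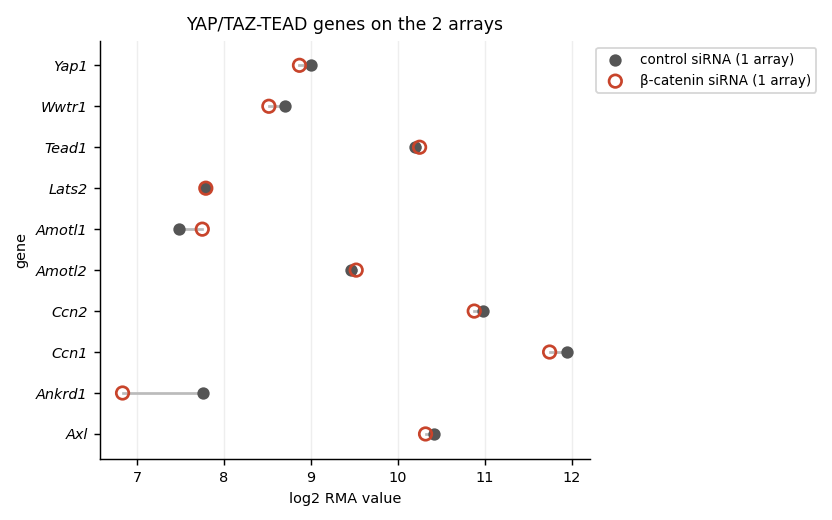
Log2 RMA value (horizontal axis) of each of the 10 genes (vertical axis) after control siRNA (filled points) and β-catenin siRNA (open points), 1 array each. Ankrd1 shows the widest gap, from 7.76 to 6.83, and the points of Lats2 nearly coincide. Levels of different genes depend on their probes and are not to be set against each other.

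The coactivator genes differed little. Yap1 encodes YAP, a coactivator without a DNA-binding domain of its own. Its log2 value was 9.00 in the control and 8.87 after β-catenin siRNA, which is 91.4% of the control signal. Wwtr1, the gene of the paralog TAZ, had 8.70 and 8.52, or 87.9%. Both were on the lower side, with differences of -0.13 and -0.19 where the 500 genes nearest in level had robust SDs of 0.19 and 0.17. Tead1 encodes the DNA-binding protein that brings YAP and TAZ to their target genes. Its value was 10.20 in the control and 10.25 after β-catenin siRNA, a difference of 0.05. Tead1 was also the only one of the 10 genes with more than 1 single-gene probe set, and the dimmer of its 2 probe sets differed by -0.03, so its direction depended on the probe set.

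The upstream genes showed no lower value. Lats2 encodes a kinase that inhibits YAP and TAZ and is itself a YAP/TAZ target, a feedback loop. Its values were 7.78 and 7.79, the smallest difference of the 10 genes at 0.01. Amotl2, an angiomotin-family scaffold that binds YAP and is likewise a target, had 9.46 and 9.52. Amotl1, a scaffold of the same family, had 7.48 in the control and 7.75 after β-catenin siRNA. That difference of 0.27, or 1.21-fold higher, was the largest positive one of the 10 and ranked 1152 from the highest of 10197 genes.

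The 4 other target genes were lower by unequal amounts. Ankrd1 encodes a cardiac and stretch-induced ankyrin repeat protein that is also induced in fibroblasts. Its log2 value was 7.76 in the control and 6.83 after β-catenin siRNA, which is 52.7% of the control signal, or 1.90-fold lower. Both values lay above the level filter, and the difference of -0.92 ranked 48 from the lowest of 10197 genes, where Ctnnb1 ranked 20. The robust SD among the 500 genes nearest in level was 0.22. Muscle also makes Ankrd1. The 6 skeletal muscle markers were all below the level filter on both arrays, with a log2 summed signal of 6.72 in the control and 6.80 after β-catenin siRNA, and the part of muscle RNA in the Ankrd1 value was not tested.

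Ccn1 and Ccn2, which encode secreted matricellular proteins and are the most used YAP/TAZ reporter genes, did not share the size of the Ankrd1 difference. Ccn1 had 11.95 in the control and 11.74 after β-catenin siRNA, or 86.8% of the control signal. Ccn2 had 10.98 and 10.88, or 93.0%. The difference of Ccn1, -0.20, and that of Ccn2, -0.11, ranked 2016 and 3509 from the lowest, well inside the bulk of genes. Axl, a receptor tyrosine kinase that binds the ligand GAS6, had 10.41 and 10.32, a difference of -0.10. The 500 genes nearest in level had robust SDs of 0.16 for Ccn1, 0.17 for Ccn2 and 0.18 for Axl. Over the 6 genes that are transcribed targets (Ccn1, Ccn2, Ankrd1, Axl, Amotl2 and Lats2) the median was -0.10. The median over all genes past the filter was -0.02. Of these 6 targets 4 were lower and 2 higher, beside shares of 52.8% and 45.8% among all genes. Within 1.5-fold stayed 5 of the 6, where 1.84% of all genes were at least 1.5-fold lower and 2.76% that much higher.

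**Figure D2:**
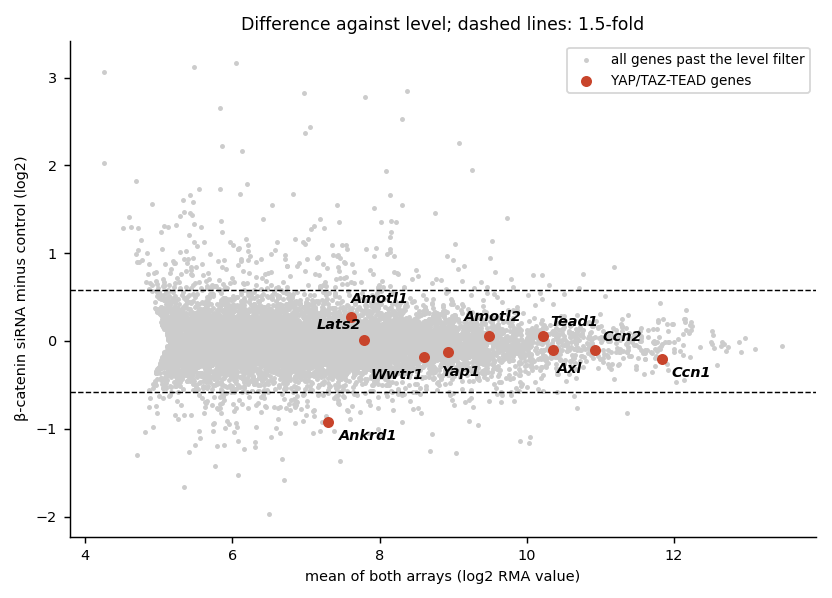
Difference between the arrays (vertical axis, log2, β-catenin siRNA minus control) against the mean of both arrays (horizontal axis, log2 RMA value) for the 10197 genes past the level filter (grey) and the 10 YAP/TAZ-TEAD genes (red). Dashed lines mark 1.5-fold in either direction. Ankrd1 at -0.92 lies outside the lines, and the other 9 genes lie between -0.20 and 0.27.

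Promoter sequences were read from RefSeq for GRCm38.p6, in windows from 250 bases before to 50 bases after each gene's start, to see which of these genes hold the letters of the TEAD site. The motif searched was GGAATG, the core of the M-CAT element, on both strands. Windows were found for 8 of the 10 genes, and 7 of these 8 held at least 1 match, where 16.6% of 27025 genes did. Those 7 were Yap1, Wwtr1, Lats2, Amotl2, Ccn1, Ankrd1 and Axl, and the window of Amotl1 held none. Tead1 and Ccn2 had no window in the table. The matches, each read on the strand that gives GGAATG and shown with 12 bases on either side and the motif in capitals, allow the flanks to be compared:
Ankrd1 first site: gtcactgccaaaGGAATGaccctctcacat
Ankrd1 second site: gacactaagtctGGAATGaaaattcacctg
Ccn1 site: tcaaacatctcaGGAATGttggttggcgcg
Amotl2 site: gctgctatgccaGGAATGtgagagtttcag
Axl site: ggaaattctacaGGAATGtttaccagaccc
Lats2 site: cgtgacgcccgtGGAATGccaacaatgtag
Yap1 site: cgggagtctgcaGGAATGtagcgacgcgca
Wwtr1 site: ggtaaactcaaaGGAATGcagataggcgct

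Ankrd1 was the only gene of the 7 with 2 matches, a number reached by 1.36% of all 32851 windows. Counted from the start, where the base before it is -1, its matches began at -210 and -123, and both read in the direction of the gene. The match of Ccn1 began at -103 and that of Amotl2 at -65, both on the opposite strand. The others began at -233 in Axl, -141 in Yap1 and -136 in the outer of the 2 windows of Wwtr1. In the first of the 2 windows of Lats2 the match began at 5, just inside the transcribed part. The second window of Lats2, with 42.7% G and C, held none. The first windows of these genes are rich in G and C. Among the windows with at least the G and C share of the Ankrd1 window, 54.7%, which was the lowest among the first windows of the 8 genes, 11.1% held GGAATG. A match is a description of letters, and no binding was measured here.

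The upstream parts of the promoters of Ankrd1, the gene with the large difference, and Ccn1, a target with a small one, are given whole for comparison, with GGAATG or its reverse complement CATTCC in capitals. They lie at chr19:36119845-36120094 and chr3:145649986-145650235, both on the minus strand and written in the direction of the gene:
Ankrd1 promoter: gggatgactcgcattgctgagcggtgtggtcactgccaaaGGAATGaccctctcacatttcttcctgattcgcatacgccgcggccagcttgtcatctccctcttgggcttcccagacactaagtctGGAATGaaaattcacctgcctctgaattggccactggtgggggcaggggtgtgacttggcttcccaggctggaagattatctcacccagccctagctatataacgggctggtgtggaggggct
Ccn1 promoter: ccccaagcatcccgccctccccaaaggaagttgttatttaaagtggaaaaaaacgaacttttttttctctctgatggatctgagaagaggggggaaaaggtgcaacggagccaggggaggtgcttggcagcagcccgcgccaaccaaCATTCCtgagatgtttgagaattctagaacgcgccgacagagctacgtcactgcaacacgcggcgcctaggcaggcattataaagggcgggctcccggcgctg

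The same windows were searched for other motifs. The AP-1 motif TGANTCA was found in none of the 8 genes, against 8.97% of all genes. The TCF/LEF motif ATCAAAG, the site through which β-catenin acts on its target genes, was found in 2 of them, Wwtr1 and Amotl2, against 4.29%. The CArG box of serum response factor (SRF), made of 2 C, 6 A or T and 2 G, was found in none of the 8, against 1.81% of all genes. No match overlapped a GGAATG match in these windows. GGAATG was held by Ankrd1, with its difference of -0.92, and by Ccn1, Wwtr1, Yap1, Axl, Lats2 and Amotl2. The differences of those others lay between -0.20 and 0.06. Whether a match bears on a difference was not tested.

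In the CCN and TEAD families and among the receptors and ligands around Axl, the partners of the 10 genes differed in both directions. In the CCN family Ccn3 (older symbol Nov), whose product is often described as opposing CCN2, had 7.47 in the control and 8.27 after β-catenin siRNA, or 1.75-fold higher. Ccn5 (older symbol Wisp2) had 8.53 and 7.98, a difference of -0.55. Ccn4 (older symbol Wisp1, named as a Wnt-induced gene) had 9.49 and 9.32, a difference of -0.17. Ccn6 was below the level filter, with 4.06 and 3.73. Of the 5 CCN genes past the filter 4 were therefore lower and 1 higher, with a spread from -0.55 to 0.81 in which Ccn1 and Ccn2 held middle places.

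Around Axl the ligand differed more than the receptors. Gas6 encodes the main activating ligand of AXL. It had 8.53 in the control and 9.45 after β-catenin siRNA, which is 1.89-fold higher and ranked 120 from the highest of 10197 genes. The other ligand gene, Pros1 (protein S), had 9.23 and 9.29. The receptor genes Tyro3 and Mertk had differences of 0.05 and -0.23, so none of the 3 receptor genes with Axl reached 1.5-fold. AXL and GAS6 are also made by macrophages. Of the 6 myeloid markers, 5 were below the level filter. The remaining one, Lyz2, passed only through its higher value, with 4.75 in the control and 5.38 after β-catenin siRNA. It was 1.55-fold higher, a difference of 0.63 where the 500 genes nearest in level had a robust SD of 0.37. Of the 5 below the filter, Ptprc (-0.49), Adgre1 (-0.47), Cd68 (-0.11) and Csf1r (-0.01) were lower and C1qa (0.47) was higher. The log2 of the summed signal of all 6 was 6.66 in the control and 6.82 after β-catenin siRNA, and the part of myeloid RNA in the Gas6 difference was not tested.

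The angiomotin family, whose members hold YAP at junctions and actin filaments, was higher in all 3 genes by unequal amounts. Among all genes past the filter 45.8% were higher by any amount. Amot itself had 5.59 in the control and 6.21 after β-catenin siRNA, or 1.54-fold higher, from a level close to the filter. Amotl1 and Amotl2, given above, had differences of 0.27 and 0.06. The 500 genes nearest in level had robust SDs of 0.26 for Amot, 0.20 for Amotl1 and 0.18 for Amotl2. The kinase gene Lats1 had 8.02 and 8.11, a difference of 0.09 beside 0.01 for Lats2. Among the TEAD genes, Tead2 differed by 0.10, Tead3 by -0.29 and Tead4 by -0.24, with Tead1 at 0.05. The muscle ankyrin repeat genes Ankrd2 and Ankrd23, the relatives of Ankrd1, were both below the level filter on both arrays (4.54 and 4.08 for Ankrd2, 4.52 and 4.57 for Ankrd23).

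**Figure D3:**
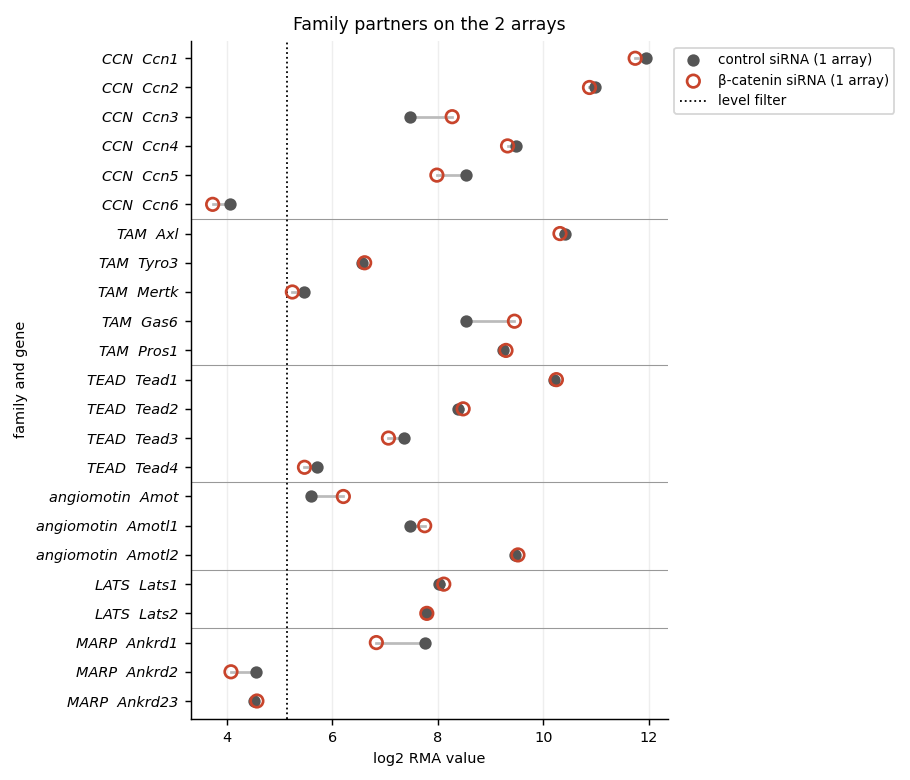
Log2 RMA value (horizontal axis) of each family partner (vertical axis, grouped by family) after control siRNA (filled) and β-catenin siRNA (open). TAM stands for the receptors Tyro3, Axl and Mertk with their ligands, and MARP for muscle ankyrin repeat proteins. The dotted line is the level filter of 5.13. Ccn3, Gas6 and Amot are higher and Ankrd1 and Ccn5 lower after β-catenin siRNA by the widest gaps among genes past the filter.

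Other Hippo components were close to equal on the arrays. Of 23 genes listed for the kinase cascade, its scaffolds and other YAP/TAZ regulators, 22 were measured and passed the filter, 13 lower and 9 higher by any amount, close to the 52.8% and 45.8% of all genes past the filter, with a median of -0.05. Amot was the only one at least 1.5-fold higher, where 2.76% of all genes were, and none was that much lower, where 1.84% were. After Amot the largest differences were those of Rassf1 (-0.45), a scaffold of the MST kinases, Ajuba (-0.37), a LIM protein that inhibits LATS kinases, and Stk38l (-0.34), a kinase related to LATS. The cofactor list of other TEAD and Vestigial-like genes had 5 of 7 genes past the filter and a median of 0.05. It turned to -0.10 in the setting that averaged probe sets, although each gene of the list had 1 probe set. The level filter was computed anew in that setting and let in Vgll2, with 5.09 in the control and a difference of -0.25. Besides Tead3, Tead4 and Tead2, the 4 largest differences of this list include that of Vgll4 (0.17), a TEAD-binding repressor. The cadherins upstream of the pathway were higher by small amounts, with Fat1 at 0.35, Fat4 at 0.33 and Dchs1 at 0.32, whereas Fjx1, whose fly counterpart is a kinase for these cadherins, was at -0.37.

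A wider set of YAP/TAZ targets was split. A signature of 22 target genes described in human tumours includes 6 of the 10 genes, and all 22 passed the filter. Of these, 5 were at least 1.5-fold lower and 1 was at least 1.5-fold higher, beside the 1.84% and 2.76% of all genes past the filter. Their median was -0.11, with 14 lower and 8 higher by any amount. The 5 lower genes were Ankrd1, Ccdc80, Tgfb2, Dock5 and Crim1. Dock5 and Crim1 are outside the naming rule and were picked after their values were seen.

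Ccdc80, a secreted matrix-associated protein, had 11.78 in the control and 10.96 after β-catenin siRNA, or 56.7% of the control signal. Tgfb2, a TGF-β ligand, had 6.17 and 5.40, a difference of -0.77. Dock5, an activator of the GTPase Rac, had 7.03 and 6.27, and Crim1, a transmembrane protein that binds BMP ligands, had 9.90 and 9.30. These genes were thus lower by 1.51-fold to 1.76-fold, less than Ankrd1. In the opposite direction Igfbp3, which encodes a binding protein for insulin-like growth factors, had 6.41 and 9.19, or 6.88-fold higher, and ranked 6 from the highest. Igfbp3 is also known as a p53 target. The rest of the signature lay between -0.37 and 0.31.

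**Figure D4:**
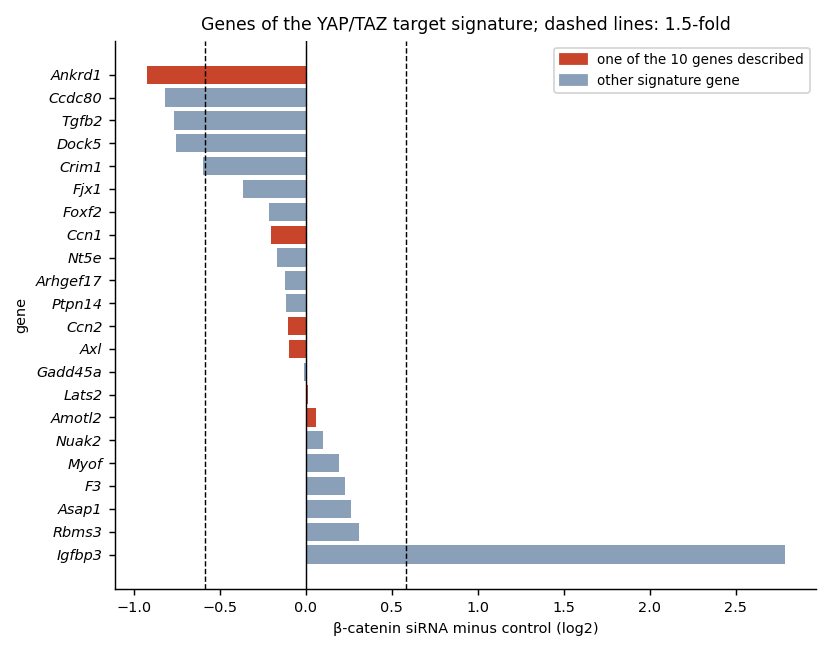
Difference (horizontal axis, log2, β-catenin siRNA minus control) of the 22 signature genes (vertical axis, in order of difference). Red bars are the genes shared with the 10 described here, and dashed lines mark 1.5-fold. The bars run from -0.92 (Ankrd1) to 2.78 (Igfbp3), and 16 of the 22 stay inside the lines.

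Genes reported as YAP/TAZ targets in other cell types differed in both directions. Of 9 such genes past the filter, the endothelin gene Edn1 had 8.14 and 6.78 and was 2.57-fold lower, and the transglutaminase gene Tgm2 had 6.91 and 5.70 and was 2.31-fold lower. Jag1, a Notch ligand, had 7.53 and 8.78 and was 2.36-fold higher. Inhba, an activin subunit, differed by -0.58. The median of the 9 genes was -0.31. This list was drawn up with the values of some of its genes known, so its direction is no independent evidence.

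The actin-linked genes of SRF and its MRTF coactivators were set beside the 10 genes because Ankrd1, Ccn1 and Ccn2 are known to respond to both routes. All 15 measured SRF/MRTF targets had values below the control, with Fhl2 nearly equal at -0.01, where 52.8% of all genes past the filter were lower. At least 1.5-fold lower were 5 of the 15, beside 1.84% of all genes. The list had a median of -0.42 where the median over all genes past the filter was -0.02. This list too was chosen with earlier results of these data known, so its direction is no independent evidence. Acta1 (skeletal α-actin) differed by -1.25, Cnn1 (calponin) by -1.09, Fhl1, a LIM protein of muscle, by -0.92 and Myl9, a myosin light chain, by -0.76. These genes were named for having the largest differences of the list, so no likeness to Ankrd1 can be drawn from them. Smaller differences in the list included those of Acta2 (-0.12), Actb (-0.09) and Zyx (-0.14), which were picked here after their values were seen. Set against the list median of -0.42, the Ankrd1 difference of -0.92 was larger in size. Those of Ccn1 (-0.20) and Ccn2 (-0.11) were smaller. In the promoter windows a CArG box was found in 6 of the 12 SRF/MRTF targets with a window and in none of the 8 genes above, and the difference between the lists was not tested.

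**Figure D5:**
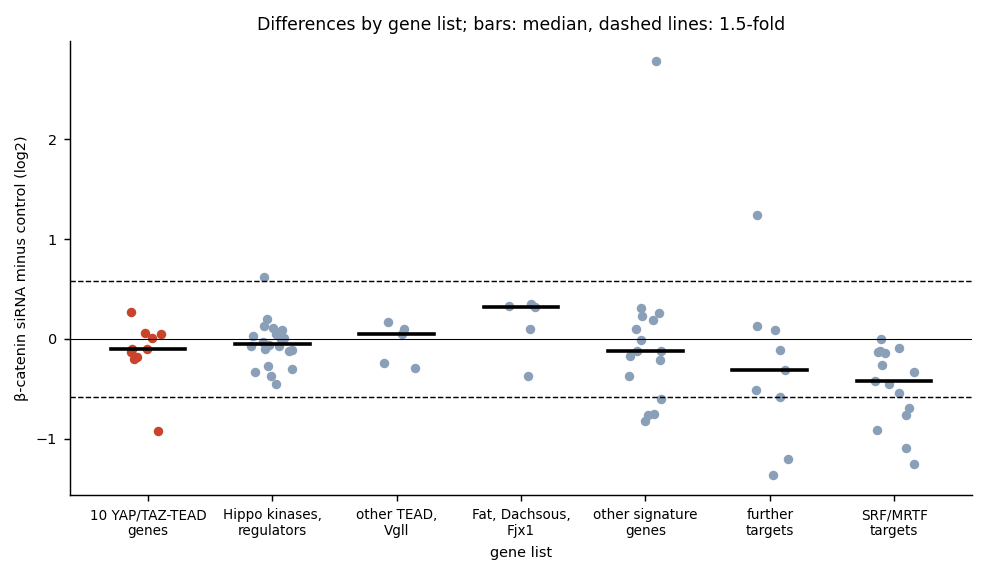
Difference (vertical axis, log2, β-catenin siRNA minus control) of each gene past the level filter, by gene list (horizontal axis). Points are genes, black bars medians and dashed lines 1.5-fold. The signature column leaves out the 6 genes already among the 10. Medians run from -0.42 for the SRF/MRTF targets to 0.32 for the Fat and Dachsous list, and the 10 YAP/TAZ-TEAD genes sit near 0 except for Ankrd1.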

How the data were processed

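The deposited table holds log2 values of 28944 probe sets on 2 arrays. They were made with RMA, per the submitters' processing notes, by a program and version not given in the sources used here. The log2 scale was inferred from the range of the deposited values, 0.485 to 13.5. RMA makes the distributions of the arrays nearly equal, so differences are relative to other probe sets, and it can shrink those of dim ones. On these arrays, however, differences spread more widely at low levels. The robust SD among the 500 genes nearest in level was 0.37 for Lyz2, 0.26 for Amot and 0.16 for Ccn1. Over all probe sets the medians were 4.68 in the control and 4.71 after β-catenin siRNA. The largest gap between the sorted values of the arrays was 0.12. Probe intensities and detection calls were not used here, and having 1 array per group limits the precision.

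Probe sets with exactly 1 gene symbol (21789) were used, named through gene identifiers in RefSeq GRCm38.p6 (21698 matched). The probe set of highest mean stood for a gene. Differences were subtractions in Python 3.11.15 with pandas 2.3.3. The code was checked on simulated shifts larger than any difference of the 10 genes, which says nothing about how reliable smaller differences are. The members, gene lists and tests were chosen with earlier results of these data known. Named genes are the 10 genes, their family partners, Ctnnb1, Axin2 and the 4 largest absolute differences past the level filter in each Hippo, TEAD, cadherin, target and SRF/MRTF list. Cell type markers, Acta2, Actb, Zyx, Dock5, Crim1 and chromosomal neighbours are named outside this rule, after their values were seen. Stk3, Dchs2, Areg and Actg1 had no single-symbol probe set and were not analysed here.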

Additional observations from a re-analysis of the deposited data

How the results depend on the processing

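Alternatives were no level filter, the filter on both values, centring on the median or by lowess on level (span 0.3), averaging a gene's probe sets, the probe set highest in the control, and probe sets with several symbols included. Under these 7 alternatives Ankrd1 stayed the only one of the 10 genes at least 1.5-fold lower, with a difference between -0.92 and -0.90, and none was at least 1.5-fold higher. No difference of the 10 genes moved by more than 0.042 or changed sign, though that of Tead1 ranged from 0.012 to 0.092. The list medians compared moved by less than 0.16, the pooled SD between a gene's probe sets. They were those of the 10 genes, their targets, and the Hippo, TEAD and Vestigial-like, signature, further-target and SRF/MRTF lists. That of the other TEAD and Vestigial-like genes turned from 0.05 to -0.10 with averaged probe sets, where the recomputed level filter let in Vgll2. The median of the 10 genes lay between -0.10 and -0.06. The Fat and Dachsous median went from 0.32 to 0.21 without the level filter, and other alternatives were not run for it or for the CCN and TAM families. Median centring moved all genes by 0.02. No paired analysis was possible because each group has 1 array, and for the same reason no array could be left out. None of these settings replaces the missing replicate cultures.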

Other observations

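Genes next to the 10 on the chromosome, by RefSeq order of protein-coding genes, gave a local view of the differences. Ankrd1 lies between Rpp30, a subunit of ribonuclease P, and Pcgf5, a Polycomb group gene, which had differences of 0.11 and -0.26, so its own difference of -0.92 was not seen in either neighbour. Ccn1 lies beside Ddah1, which breaks down methylated arginines. Ddah1 had 10.71 on the control array and 10.13 after β-catenin siRNA, a difference of -0.58, larger than the -0.20 of Ccn1. Wwtr1 lies beside Commd2, which differed by -0.57 while Wwtr1 differed by -0.19. Yap1 lies beside Birc3, an inhibitor of apoptosis induced by NF-κB, which had 6.28 and 6.64. These neighbours were picked after their values were seen, and no test was possible with 1 array per group.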
